A study of Mus musculus with 10 samples.

Results

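Neutrophils carry their killing proteins in granules that are filled in turn while the cell matures in the bone marrow. Primary granules hold myeloperoxidase (Mpo), neutrophil elastase (Elane) and the related protease Prtn3, and later granules hold cathelicidin (Camp), lactoferrin (Ltf), neutrophilic granule protein (Ngp) and the siderophore-binding lipocalin 2 (Lcn2). S100a8 and S100a9 form the abundant cytosolic heterodimer calprotectin, Csf3r is the receptor of the granulocyte growth factor G-CSF, and Ly6g is the surface antigen used to recognise mouse neutrophils. These genes are active in the granulocyte lineage, though not all are restricted to it. Their cytosines at CpG positions are commonly less methylated in the cells that use them.

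DNA methylation of these 10 genes was examined in lung DNA of female BALB/c mice, purchased at 8 weeks of age. All 3 groups came from one strain. The saline group (n = 3) received saline, the OVA group (n = 3) was sensitised and challenged with ovalbumin as an asthma model, and the third group (n = 4), named Herb in the labels, was taken as the OVA mice given the seed extract of Descurainia sophia (DSE) by mouth. Capture bisulfite sequencing (SureSelect Methyl-seq) gave methylated and unmethylated CpG calls, and the values are sums of these calls over windows of 1000 bp placed every 500 bp, so that neighbouring windows share bases. Whole lung is a mixture, and a change in the share of neutrophils cannot be told apart from a change of methylation within a cell.

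A window belonged to a gene when it overlapped the RefSeq GRCm38 gene span or the 5 kb on either side. By this rule 60 of the 446336 windows belonged to the 10 genes, and 56 of the 60 had at least 20 calls in every mouse, the minimum for a mouse to be used. Each library held 153328794 to 205414739 calls when windows that share bases are left out. Summed over all windows, which counts most calls in both of the windows that hold them, the totals were 306656737 to 410836272, and the 60 windows held 45831 to 62667 calls on this scale. Elane had 18 windows, Csf3r 11, Lcn2 10, Mpo 9, Ltf 7, Ngp 3 and Ly6g 2. S100a8, S100a9 and Camp had 0 windows among those analysed and are not described further by value.

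Coverage of the genes themselves was uneven. All 9 Mpo windows lay in the gene, which spans chr11:87793784-87804412, whereas 5 of 11 Csf3r windows, 3 of 7 Ltf windows, 1 of 3 Ngp windows and 0 of 10 Lcn2 windows touched the gene. Ly6g was the single member with a window over its start, its centre being 240 bp downstream. The window starting 500 bp further on held the same calls, so the calls lay downstream of the Ly6g start. For the other genes the nearest window centre lay 1811 bp (Elane) to 3693 bp (Ngp) from the start of the gene span. The Csf3r window, at 2060 bp by this measure, was 842 bp from the start of the curated transcript. Promoter methylation of the granule genes was therefore not measured here.

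The promoters of these genes hold few CpGs. RefSeq promoter stretches of 300 bases (250 before to 50 after the start, GRCm38) were found for all 10 genes, and the 11 stretches had a median of 3 CpGs, against 7 over all 32851 promoters. Csf3r had the most with 9, Elane had 6 and Mpo and S100a9 had 2 each. The 250 bases before the start of the 3 genes without windows are shown on the coding strand, with each CpG in capitals.
S100a8, chr3:90668821-90669070, plus strand: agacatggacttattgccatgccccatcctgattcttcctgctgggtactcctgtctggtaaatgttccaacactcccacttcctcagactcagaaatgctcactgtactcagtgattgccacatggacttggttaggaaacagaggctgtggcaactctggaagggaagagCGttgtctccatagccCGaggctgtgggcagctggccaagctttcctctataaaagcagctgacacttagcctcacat
S100a9, chr3:90695722-90695971, minus strand: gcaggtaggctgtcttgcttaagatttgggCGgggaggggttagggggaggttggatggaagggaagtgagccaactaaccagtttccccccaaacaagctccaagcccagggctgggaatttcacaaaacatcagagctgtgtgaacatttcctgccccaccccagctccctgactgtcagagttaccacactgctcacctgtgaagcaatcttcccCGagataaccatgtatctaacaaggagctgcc
Camp, chr9:109849457-109849706, minus strand: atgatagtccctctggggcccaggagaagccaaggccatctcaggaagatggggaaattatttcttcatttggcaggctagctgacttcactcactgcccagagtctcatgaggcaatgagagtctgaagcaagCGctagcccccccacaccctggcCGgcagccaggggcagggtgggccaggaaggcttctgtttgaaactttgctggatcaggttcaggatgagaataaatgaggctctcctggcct

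The regions on which the comparisons turn are shown next, as the 200 bases richest in CpGs of each region, on the plus strand of GRCm38 and with each CpG in capitals. All 4 genes are on the plus strand. The first Mpo region is where windows over exon 8 of 14 share bases, the second Mpo region holds the calls of the windows over exon 10, the Prtn3 region lies upstream of Elane, and the Ltf region covers exon 10 of 17.
Mpo, first region, chr11:87797275-87797474: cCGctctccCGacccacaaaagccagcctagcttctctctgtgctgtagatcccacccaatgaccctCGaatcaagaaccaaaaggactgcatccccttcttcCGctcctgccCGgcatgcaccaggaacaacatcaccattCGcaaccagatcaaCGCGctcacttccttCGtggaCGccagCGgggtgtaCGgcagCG
Mpo, second region, chr11:87801036-87801235: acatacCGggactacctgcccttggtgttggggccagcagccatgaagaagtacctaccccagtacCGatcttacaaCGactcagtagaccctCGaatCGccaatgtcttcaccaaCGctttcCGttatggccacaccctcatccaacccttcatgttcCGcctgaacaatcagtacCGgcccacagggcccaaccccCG
Prtn3, upstream of Elane, chr10:79881060-79881259: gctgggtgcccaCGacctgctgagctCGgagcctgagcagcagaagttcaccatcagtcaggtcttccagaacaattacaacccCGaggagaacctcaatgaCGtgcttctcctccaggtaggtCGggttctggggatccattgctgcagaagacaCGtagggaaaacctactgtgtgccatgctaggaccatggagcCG
Ltf, chr9:111027191-111027390: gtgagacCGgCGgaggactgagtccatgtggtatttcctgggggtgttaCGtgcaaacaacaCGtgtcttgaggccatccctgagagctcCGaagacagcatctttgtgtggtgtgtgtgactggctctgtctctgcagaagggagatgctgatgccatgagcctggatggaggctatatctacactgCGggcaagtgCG
These stretches held 13, 10, 7 and 7 CpGs, respectively. The windows of the 10 genes had a median of 17 CpGs, against 13 over all windows.

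In saline mice the 56 windows were spread over the whole scale of methylation much as all windows were. Of the 56, 12 had a mean under 20%, 13 a mean over 80% and 31 a mean between these, and the median was 57.9%. Over all windows 21.9% were under 20% and 22.8% over 80%, with a median of 57.2%. The lowest windows were the CpG-rich starts of neighbouring genes: windows chr4:126046501-126047500 over the start of Mrps15, downstream of Csf3r, and chr2:32381001-32382000 over the start of 1110008P14Rik, downstream of Lcn2, were at 1.06% to 1.35% in the saline mice. These belong to the neighbours and not to the neutrophil genes.

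The first comparison, OVA vs. saline, asks how induction of asthma changed methylation at these genes. A window was called when the likelihood ratio test of pooled calls gave a Benjamini-Hochberg adjusted p under 0.01 over all windows and the pooled methylation of the groups differed by at least 10 percentage points. A region within Mpo and a Prtn3 window in the upstream flank of Elane were called lower (hypo methylated) in OVA mice. At this threshold 0 windows of any member were hyper methylated. Mpo and Prtn3 encode the primary granule peroxidase and a serine protease. Called windows numbered 3 of 56, or 5.36%, all lower, where 2.56% of all windows tested were called lower and 4.75% higher. Of these 3, 2 are overlapping Mpo windows with identical calls in all 10 mice, so that 2 regions were called. This test has no term for the spread between mice. With limma on the values of the mice, 0 of 56 windows had an adjusted p under 0.05, as for 0.00% of all windows, and 10 of 56, or 17.9%, had an unadjusted p under 0.05, against 19.2% of all windows.

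The called Mpo region lay in the second part of the gene. Windows chr11:87800501-87801500 and chr11:87801001-87802000 held the same calls, which therefore fell in the 500 bases they share, around exon 10 and its flanking introns. Methylation was 78.1%, 82.7% and 80.1% in the saline mice and 57.8%, 71.1% and 73.6% in the OVA mice. Every OVA mouse was below every saline mouse, and OVA replicate 1 was the lowest. The means were 80.3% ± 2.28 (SD, n = 3) and 67.5% ± 8.51 (SD, n = 3), and the pooled difference was -14.8 points (likelihood ratio test, adjusted p = 5.59e-06). The limma adjusted p was 0.168. Depth was modest here, at 68 to 251 calls per mouse, and the 95% Wilson interval of OVA replicate 1 ran from 51.6% to 63.7%, which covers counting error only. Without OVA replicate 1 the difference was -7.81 points (adjusted p = 0.0574) and the region was no longer called.

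Nearer the Mpo start, a deeper region differed less in size and with less spread. Window chr11:87796501-87797500, centred 3217 bp downstream of the start and holding 1809 to 3047 calls per mouse, was at 56.1%, 53.1% and 53.7% in saline mice. In OVA mice it was at 47.2%, 46.6% and 46.1%. The groups did not overlap, the means were 54.3% ± 1.63 (SD, n = 3) and 46.6% ± 0.554 (SD, n = 3), and the difference of -7.56 points was under the 10-point threshold (likelihood ratio adjusted p = 7.69e-19, limma adjusted p = 0.186). The next window, chr11:87797001-87798000, shared most of these calls and differed by -6.94 points.

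Mpo did not move as a whole. Towards its end, window chr11:87801501-87802500 was higher in OVA mice, at 68.1%, 64.7% and 65.6% against 51.6%, 61.4% and 64.2% in saline mice. It held 37 to 72 calls per mouse, and the difference of 7.21 points did not pass the test (likelihood ratio adjusted p = 0.28, limma adjusted p = 0.354). The 3 windows after it differed by 2.14 to 2.66 points between OVA and saline, with overlapping groups.

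**Figure D1:**
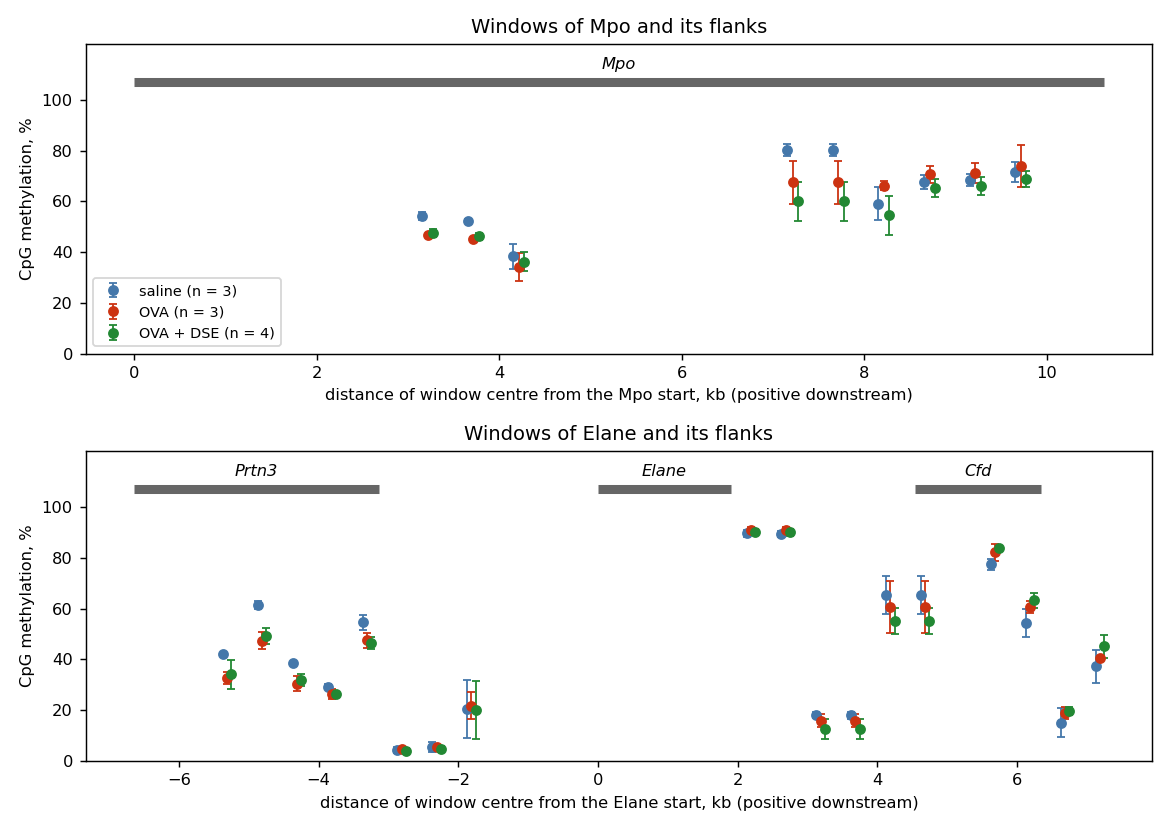
CpG methylation (percent, mean and SD over mice) of each window of Mpo (top) and of Elane with its neighbours Prtn3 and Cfd (bottom) against the distance of the window centre from the gene start in kb, for saline (n = 3), OVA (n = 3) and OVA with DSE (n = 4). Grey bars are gene spans; the OVA and DSE means lie below the saline mean in the first 5 Mpo windows and the first 5 windows of the lower panel, and near it in the last Prtn3 window and in the 2 windows past the end of Elane.

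The Elane windows divide by position. The gene is short (1905 bp, chr10:79886312-79888216) and sits between Prtn3, which ends 3.14 kb upstream, and Cfd, the complement factor D gene, which begins 2.64 kb downstream. The hypo methylated window, chr10:79881001-79882000, overlaps exons 3 and 4 of the 5 exons of Prtn3. It was at 62.0%, 62.7% and 59.8% in saline mice and at 49.2%, 49.3% and 43.5% in OVA mice, with 2202 to 3268 calls per mouse. No OVA mouse reached the lowest saline mouse. The means were 61.5% ± 1.47 (SD, n = 3) and 47.3% ± 3.33 (SD, n = 3), and the pooled difference was -13.9 points (likelihood ratio adjusted p = 1.32e-71, limma adjusted p = 0.106).

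Most neighbouring Prtn3 windows had smaller differences of the same sign. Windows starting at chr10:79880501, 79881501 and 79882501 differed by -9.19, -7.69 and -7.24 points, each with every OVA mouse below every saline mouse. The window at 79882001 differed by -2.82 points and the window at 79883001, over exon 5, by 0.556 points, both with overlapping groups. Past the end of Prtn3 the DNA was nearly unmethylated: window chr10:79883501-79884500 had means of 5.48% and 5.44% in saline and OVA mice.

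Elane itself was hardly measured. The single window that touches it, chr10:79888001-79889000, overlaps its last exon and the pseudogene Gm19810 beyond, and was at 88.6%, 89.0% and 91.2% in saline mice. The OVA mice were at 91.7%, 89.8% and 91.5%, the groups overlapped, and the difference was 1.36 points. Its calls were the same as those of the window starting 500 bp downstream in 8 of 10 mice and differed by at most 14 calls, so that nearly all of them lay past the end of the gene and the values are those of its downstream flank. The window nearest the Elane start, centred 1811 bp upstream, had 23 to 69 calls and means of 20.3% ± 11.5 (SD, n = 3) and 21.7% ± 5.42 (SD, n = 3).

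Among the later granule genes, Ltf had 1 window with separated groups and OVA lower. Window chr9:111027001-111028000, over exon 10, was at 85.6%, 87.2% and 84.6% in saline mice and at 78.8%, 79.1% and 79.1% in OVA mice. The OVA mice lay close together and all below the saline mice. The difference of -6.67 points (likelihood ratio adjusted p = 8.32e-08, limma adjusted p = 0.117) was below the 10-point threshold. The Ltf window nearest the start, chr9:111015501-111016500, lies upstream of the gene and was at 94.5% ± 3.6 (SD, n = 3) and 96% ± 3.85 (SD, n = 3).

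Lcn2 and Ngp gave little. The Lcn2 window with the largest difference, chr2:32379501-32380500, belongs to 1110008P14Rik and was higher in OVA mice, at 69.8%, 71.5% and 73.1% against 66.8%, 61.9% and 64.5% (6.93 points, limma adjusted p = 0.198). The groups did not overlap in this window. The window nearest the Lcn2 start, centred 2762 bp upstream, had means of 65.2% ± 5.67 (SD, n = 3) and 68.1% ± 6.73 (SD, n = 3). For Ngp the single window with enough calls, chr9:110414001-110415000 upstream of the gene, had means of 11.3% and 9.37%. The Ngp window at the gene end, chr9:110423001-110424000, had 12 to 45 calls per mouse and was not tested. The window starting 500 bp downstream held the same calls, so they lay past the end of the gene.

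For the receptor gene Csf3r, window chr4:126025001-126026000 lies in the first intron of its curated transcript. It was at 55.9%, 54.2% and 57.1% in saline mice, 50.7%, 50% and 45.7% in OVA mice and 55.6%, 58.3%, 55.0% and 54.5% in DSE mice. The OVA mice were below both other groups without overlap. With 40 to 78 calls per mouse, neither the OVA vs. saline difference of -6.98 points (likelihood ratio adjusted p = 0.287, limma adjusted p = 0.251) nor the DSE vs. OVA difference of 7.19 points (likelihood ratio adjusted p = 0.339, limma adjusted p = 0.418) passed a test. The next window, which begins 500 bp downstream and touches exon 2, showed the same order, with means of 50.4%, 46.3% and 52.1% in saline, OVA and DSE mice. The other 3 windows in Csf3r had overlapping saline and OVA mice.

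Ly6g was highly methylated where it could be read. Its 2 windows held the same calls, 14 to 28 per mouse, too few in most mice for a test. The mice that reached 20 calls were saline replicate 3 at 82.6% (95% Wilson interval 62.9% to 93.0%) and OVA replicate 2 at 96.4% (82.3% to 99.4%). A group difference was not detectable at this depth.

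Over the 56 windows, OVA and saline mice did not overlap in 11 with OVA lower, or 19.6%, and in 3 with OVA higher. Over all windows the shares were 9.01% lower and 18% higher. The 11 lower windows came from few places: 4 in Mpo, 4 in Prtn3 upstream of Elane, 2 in Csf3r and 1 in Ltf. Since neighbouring windows share bases, they are not 11 separate observations. Of the 3 higher windows, 2 were in the flank of Lcn2 and 1 in Mpo. The median difference over the 56 windows was 0.124 points, against 0.732 over all windows, and 27 of 56 differences were below 0.

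**Figure D2:**
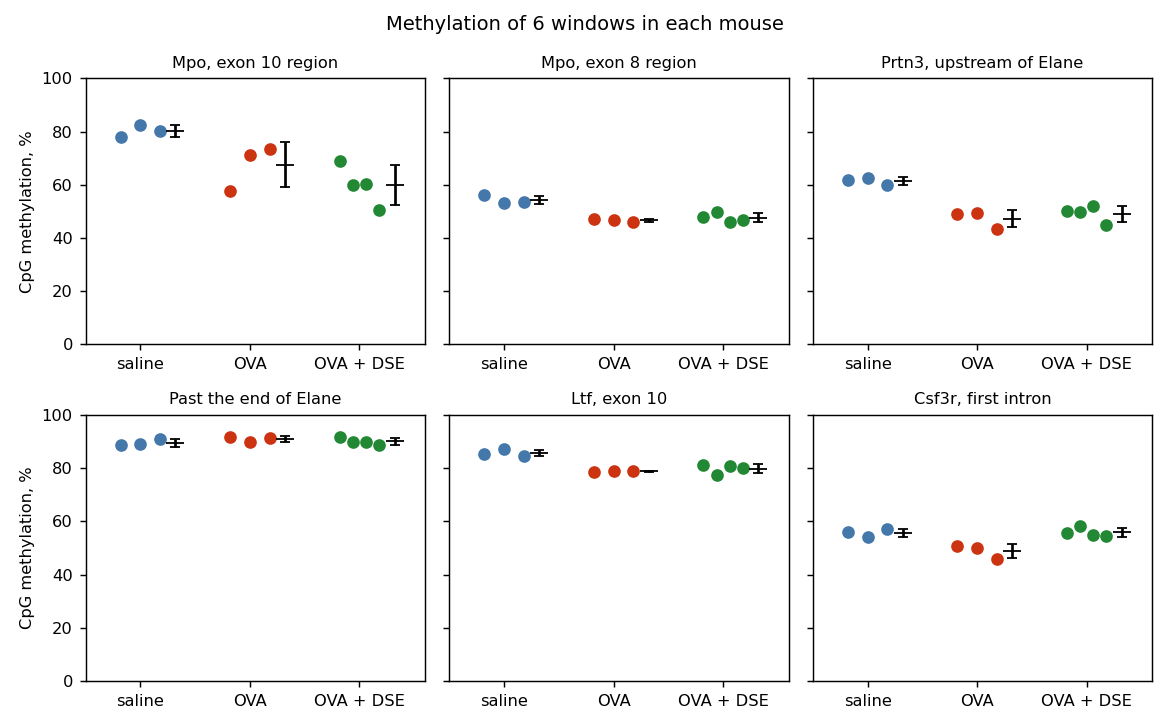
CpG methylation (percent) of 6 windows in each mouse, with black bars for the mean and SD of saline (n = 3), OVA (n = 3) and OVA with DSE (n = 4). The saline mice lie above both other groups in both Mpo regions, the Prtn3 window and the Ltf window, the groups overlap in the window at the end of Elane, and in Csf3r the OVA mice lie below the others.

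The second comparison, DSE vs. OVA, asks what the extract changed in OVA mice. Called windows numbered 0 of 56 by the likelihood ratio test, where 0.725% of all windows were called lower and 0.898% higher. With limma 0 of 56 had an adjusted p under 0.05, against 0.0894% of all windows, and 3 of 56, or 5.36%, had an unadjusted p under 0.05, against 9.66% of all windows. The groups did not overlap in 3 windows with DSE lower, 2 in Mpo and 1 in the flank of Lcn2, and in 2 with DSE higher, both in Csf3r. Over all windows these shares were 4.59% and 5.65%.

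At the called places the DSE mice, like the OVA mice, lay below every saline mouse, and no difference to OVA was called with all mice. In the exon 10 region of Mpo they were at 69.1%, 60.0%, 60.3% and 50.6%, a mean of 60% ± 7.58 (SD, n = 4), and the difference to OVA was -5.57 points (likelihood ratio adjusted p = 0.248, limma adjusted p = 0.719). That value rested on OVA replicate 1. Without this mouse the difference was -12.6 points with adjusted p = 0.00979, and both Mpo windows were called. In the exon 8 region the DSE mice were at 48.0%, 49.6%, 46.0% and 46.8%, 1.04 points above the OVA mice (limma adjusted p = 0.942). In the Prtn3 window they were at 50%, 49.8%, 51.8% and 44.8%, 1.48 points above the OVA mice (limma adjusted p = 0.909). In the Ltf window the difference was 0.884 points (limma adjusted p = 0.913). These p-values do not show that the groups were alike.

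The 3 Mpo windows starting at 87801501, 87802001 and 87802501 differed by -10.8, -5.62 and -5.4 points between DSE and OVA mice. In the window at 87802001, with 878 to 1252 calls per mouse, the OVA mice were at 68.3%, 74.3% and 69.1% and the DSE mice at 60.8%, 68.2%, 68.0% and 64.0%. All 4 DSE mice were below the lowest OVA mouse. None of the 3 windows was called, the limma adjusted p-values were 0.405, 0.609 and 0.649, and both groups overlapped the saline mice in the latter 2 windows.

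The third comparison, DSE vs. saline, gave the same 3 windows as OVA vs. saline, all hypo methylated, and 0 hyper methylated. Over all windows 3.07% were called lower and 4.95% higher. The exon 10 region of Mpo differed by -20.4 points (likelihood ratio adjusted p = 3.45e-09, limma adjusted p = 0.0328). The Prtn3 window differed by -12.4 points (likelihood ratio adjusted p = 5.09e-62, limma adjusted p = 0.0417). The 3 called windows were also the 3 of 56 with a limma adjusted p under 0.05, a threshold passed by 4.59% of all windows. OVA vs. saline and DSE vs. saline share the saline mice, so the second is not an independent repeat of the first.

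The DSE mice lay below every saline mouse in 16 of 56 windows, or 28.6%, and above every saline mouse in 4. The shares over all windows were 7.83% and 16.3%. Of the 16, 9 were Elane windows, 4 Mpo, 2 Ltf and 1 Csf3r. Neighbouring windows share bases and some hold the same calls, so these are not 16 separate observations. Among the 9 Elane windows, 5 lie in Prtn3 and 4 between Elane and Cfd or over the Cfd start. The windows with DSE higher include 2 in the body of Cfd, chr10:79891501-79892500 and chr10:79892001-79893000, with differences of 6.33 and 8.44 points (limma adjusted p = 0.0615 and 0.147).

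**Figure D3:**
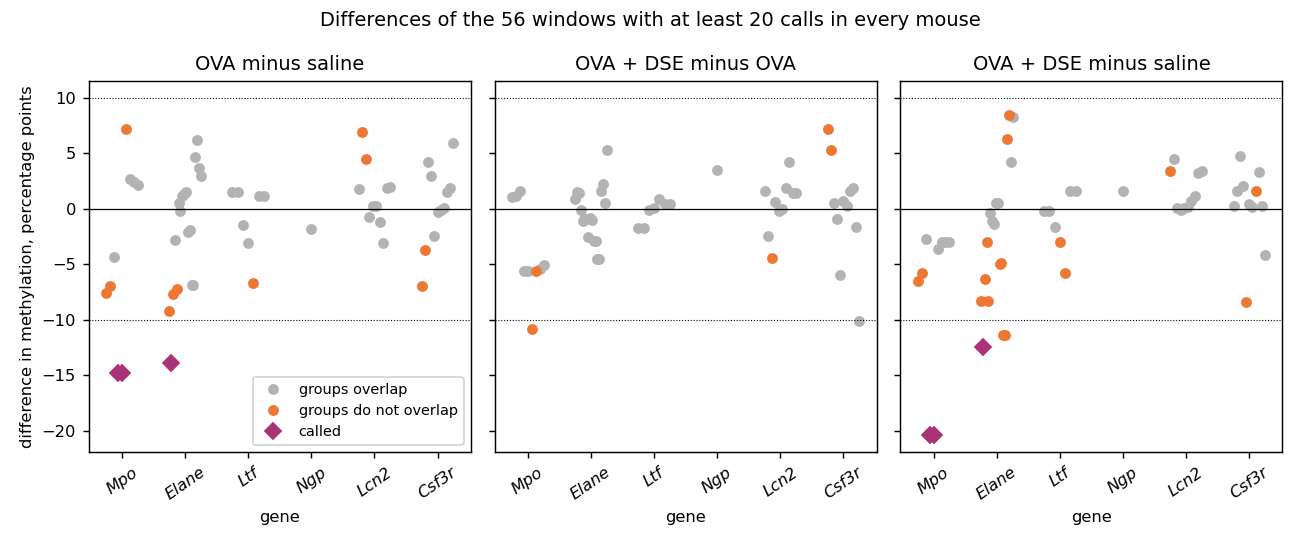
Difference in pooled CpG methylation (percentage points) of the 56 windows for OVA minus saline, OVA with DSE minus OVA and OVA with DSE minus saline, by gene. Diamonds are called windows, orange points are windows whose groups do not overlap, dotted lines mark 10 points; the called windows belong to Mpo and to the upstream flank of Elane and are at -14.8 and -13.9 points in the first panel.

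When the calls of non-overlapping windows were summed per gene, Mpo stood at 57.7% ± 0.661 in saline (SD, n = 3), 52.9% ± 1.22 in OVA (SD, n = 3) and 52.2% ± 0.838 in DSE mice (SD, n = 4). The single mice were at 57.7%, 57.1% and 58.4%, then 51.8%, 54.2% and 52.7%, then 51.5%, 53.4%, 52.1% and 51.9%. Both OVA and DSE mice were below all saline mice. The exact permutation p was 0.1 for OVA vs. saline and 0.0571 for DSE vs. saline, the smallest that 3 against 3 and 3 against 4 mice allow, and 0.343 after adjustment over the 18 gene-level tests in both cases. With limma on the sums per gene the adjusted p over 18586 genes was 0.0877 for OVA vs. saline, where 1.71% of all genes were under 0.05. It was 0.00541 for DSE vs. saline, where 39.8% of all genes were under 0.05. With each window given the same weight the Mpo means were 67.9%, 64.3% and 60.1%, the OVA and saline mice overlapped, and the exact permutation p for OVA vs. saline was 0.3.

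Summed per gene, Elane with its flanks was at 49.3%, 46.1% and 46.8% in saline, OVA and DSE mice, and Ltf at 85.5%, 83.3% and 83.6%. Elane mice did not overlap between saline and either other group, and Ltf mice did not overlap between saline and DSE. Thus 2 of the 6 genes with a value were lower without overlap in OVA vs. saline and 3 of 6 in DSE vs. saline, where 14.5% and 3.41% of 18586 genes were. With equal weight per window, only Mpo in DSE vs. saline was lower without overlap, so these counts depend on weighting by depth. In the Elane sums the separation came from the Prtn3 windows. The window at the Elane end, whose calls lay nearly all downstream of the gene, moved by 1.40 points in the other direction. Csf3r was at 26.1%, 24.8% and 27.9%, Ngp at 11.3%, 9.37% and 12.7% and Lcn2 at 23.8%, 24.7% and 25%, each with overlapping groups in all comparisons. For DSE vs. OVA all 6 genes overlapped, while 2.46% of all genes were lower and 36.4% higher without overlap. These sums weight windows by depth, and their median difference over all genes was 0.0657 points for OVA vs. saline, 1.64 for DSE vs. OVA and 2.03 for DSE vs. saline.

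The wider neutrophil programme showed called windows in both directions. Of 35 further genes, 30 had windows. Most belong to neutrophil granules, receptors, oxidase subunits and lineage factors, and a few encode chemokines or G-CSF, which act on neutrophils. Outside the windows already described, 374 were tested in OVA vs. saline, 32 (8.56%) were called lower and 15 higher, and the median difference was -0.429 points. Over all windows 2.56% were called lower and 4.75% higher, with a median of 0.732 points. Lower windows occurred at 11 genes and higher windows at 7, with 4 genes in both counts. For Cyba, a membrane subunit of the phagocyte oxidase, the sum per gene was 35.6% ± 1.23 in saline and 30.3% ± 1.63 in OVA mice (SD, n = 3 each). For Ncf4, a cytosolic subunit of the same oxidase, it was higher in OVA mice, at 36.6% ± 3.65 and 45.5% ± 3.38 (SD, n = 3 each). Prtn3 was at 37.5% and 33.1%, but 9 of its 17 windows are Elane windows already described, so this value is not separate from those. The limma adjusted p over all genes was 0.0838 for Cyba, 0.0942 for Ncf4 and 0.0877 for Prtn3. In DSE vs. OVA, 1 window of this list was lower and 6 higher of 375 tested, and in DSE vs. saline 36 were lower and 17 higher of 378. The shares over all windows were 0.725% lower and 0.898% higher in DSE vs. OVA, and 3.07% and 4.95% in DSE vs. saline.

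Markers of other lung and blood cells moved alongside. In OVA vs. saline, windows of 10 eosinophil genes were called lower in 8 (7.77%) and higher in 2 of 103, with a median of -2.60 points. Over all windows 2.56% were called lower and 4.75% higher. For each mouse, the non-overlapping windows of a list were also averaged with equal weight. This mean was 60.6% to 61.9% in saline, 58.0% to 59.4% in OVA and 57.5% to 59.0% in DSE mice. Summed per gene, Prg2, the eosinophil major basic protein gene, was at 65.0%, 51.6% and 53.0% in saline, OVA and DSE mice (OVA vs. saline limma adjusted p = 0.0374). Epx, eosinophil peroxidase, lies 59.6 kb from Mpo on the same chromosome and was at 78.4%, 73.8% and 73.5% (limma adjusted p = 0.0763). Il5ra, the interleukin 5 receptor chain, was at 35.8%, 26.9% and 30.6% (limma adjusted p = 0.0549). The mean over windows of the other neutrophil genes was 47.1% to 47.6% in saline, 46.0% to 47.0% in OVA and 46.2% to 47.4% in DSE mice.

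Other lists went differently. Windows of 8 endothelial genes were called lower in 0 and higher in 26 of 167, with a median of 3.97 points. Over all windows the shares were 2.56% lower and 4.75% higher. The mean over the endothelial windows was 44.2% to 46.1% in saline and 47.7% to 51.5% in OVA mice. Summed per gene, Tek and Tie1, endothelial receptor kinases, rose from 39.0% to 51.2% and from 55.3% to 63.6% (limma adjusted p = 0.0441 and 0.04). Macrophage genes had 2 lower and 4 higher of 83 windows, T cell genes 5 and 5 of 123, B cell genes 1 and 3 of 216 and epithelial genes 8 and 15 of 186. The shares called lower were 2.41%, 4.07%, 0.463% and 4.30%, respectively. The part of cell composition in the values of Mpo, Prtn3 and Ltf was not tested.

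**Figure D4:**
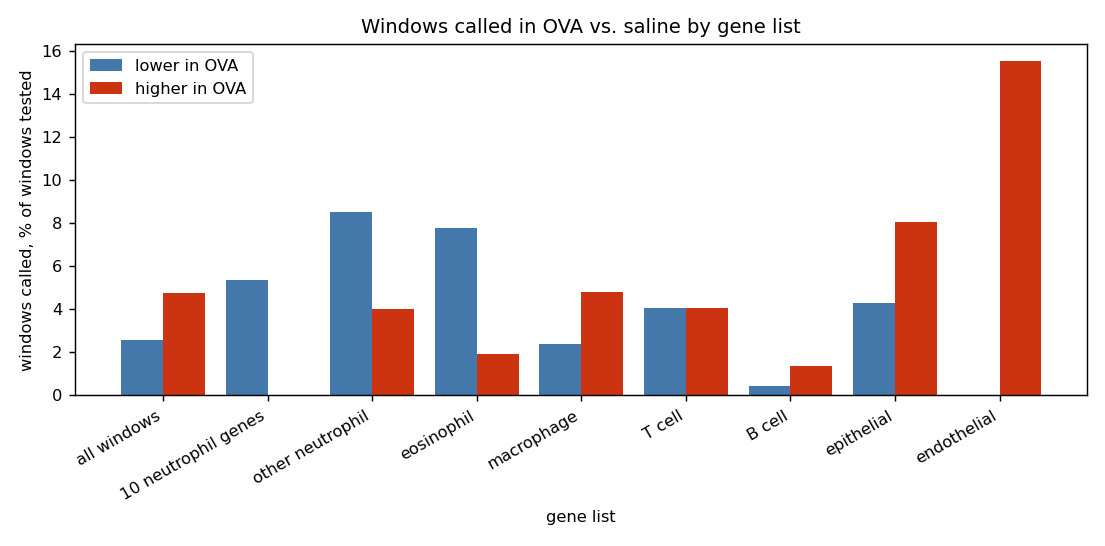
Share of tested windows (percent) called lower (blue) and higher (red) in OVA than in saline mice, for all windows, the 10 neutrophil genes and 7 marker lists. The 10 neutrophil genes have 5.36% lower and none higher, and the endothelial list has none lower.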

How the data were processed

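The data were Methyl-seq counts for the lungs of 10 mice, namely 3 saline, 3 OVA and 4 Herb mice. The third group is named Herb in the labels and was taken as the DSE group because the study describes no other herb. For these files the authors used Cutadapt for trimming, Bismark for alignment (build mm10) and methylKit for summing CpG calls, and the submitters' processing notes name versions 1.10, 0.19.0 and 1.0.0, whereas the paper's methods name others. The deposited values are counts, without normalization: calls, methylated calls and unmethylated calls of each mouse in 1000 bp windows that begin every 500 bp. No deposited window has under 10 calls in a mouse. Whether PCR duplicates were removed is not given in the sources used here, and calls on one molecule are not independent, so intervals cover counting error only.

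Windows were assigned to RefSeq genes of GRCm38 with 5 kb flanks, and 0 other columns of values were left over. Mice with fewer than 20 calls in a window were dropped from that window, and at least 2 mice per group were required. The main test was a likelihood ratio test of a logistic model of pooled calls without overdispersion, as methylKit does by default, with Benjamini-Hochberg adjustment over all windows, called at adjusted p under 0.01 and 10 percentage points. limma 3.58.1 (R 4.3.3) was run on log2((methylated + 1)/(unmethylated + 1)) of each mouse. At the level of the gene, calls were summed over non-overlapping windows that had 20 calls or more in each mouse, and the groups were compared by two-sided exact permutation tests. limma was run on these sums in the same way over all genes. Scripts used Python 3.11.15 and were tested on simulated data.

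All 10 members are named. Windows named are the one nearest each start, the called regions and, for members without a called window, the one with the largest difference in OVA vs. saline; other windows given beside them (Mpo downstream windows, further Prtn3 and Cfd windows, the last Elane window, the second Csf3r window and the tested Ngp window) were chosen after their values were seen. Of each wider list at most 3 genes are named, by the lowest limma p. The members and lists were chosen with earlier results of these data known. The labels do not say whether the mice of a group were handled separately, so limma and permutation p-values measure the spread between these samples. The likelihood ratio p-values come from pooled calls and cover counting error only. Alternatives were other call minimums, tests, thresholds, flanks, ways of summing, a replicate block and leaving out each mouse.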

Additional observations from a re-analysis of the deposited data

How the results depend on the processing

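Of 500 values recomputed under the alternatives, 453 kept their direction and side of the threshold or, for counts and levels, stayed within the set range. The count of called windows fell to 0 (OVA vs. saline) with an F test allowing for overdispersion, with limma at adjusted p under 0.01 or 0.05, and at 20 points, and to 0 (DSE vs. saline) with the F test and with limma at 0.01. Leaving out each mouse gave 2 to 3 called windows for OVA vs. saline, 3 to 4 for DSE vs. saline and 0 to 2 for DSE vs. OVA, the 2 being the Mpo windows without OVA replicate 1. In OVA vs. saline, leaving out the same mouse lost both Mpo windows, kept 1 Prtn3 window and added the one starting at chr10:79880501 (-10.7 points). The replicate numbers of the labels did not pair the mice (correlations of same-numbered mice -0.0255 to 0.0809 over 9 pairs), and the fit with a replicate block called 3, 0 and 3 windows in OVA vs. saline, DSE vs. OVA and DSE vs. saline.

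Gene-level differences in points depended on how windows were combined. With equal weight per window Mpo gave -3.61, -4.26 and -7.86 in OVA vs. saline, DSE vs. OVA and DSE vs. saline, Elane gave -1.21, -0.374 and -1.58, and Csf3r gave 0.542 in DSE vs. OVA and -0.105 in DSE vs. saline. With the gene span alone Elane turned to 1.40 (OVA vs. saline) and 0.55 (DSE vs. saline) and gave -0.853 in DSE vs. OVA, because the Prtn3 windows then drop out, Csf3r gave 0.921 in OVA vs. saline and Ltf gave -3.18 in DSE vs. saline. Leaving out each mouse kept Elane between -3.76 and -2.67 for OVA vs. saline and between -2.81 and -1.97 for DSE vs. saline.

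Small differences of named windows changed sign when a mouse was left out, and the cause was not tested. The ranges in points were -0.636 to 6.54 (OVA vs. saline) and -3.26 to 4.74 (DSE vs. OVA) for the Lcn2 window nearest the start. For the Ltf window nearest the start they were -1.32 to 4.04, -4.20 to 1.16 (DSE vs. OVA) and -1.71 to 1.66 (DSE vs. saline). For the Elane window nearest the start they were -3.60 to 8.19, -7.39 to 2.82 and -6.21 to 5.63. They were -0.229 to 2.94 for the Prtn3 window in DSE vs. OVA and -0.779 to 0.976 for the Csf3r window in DSE vs. saline. Few calls limit these windows of Elane, Csf3r and Ltf (23 to 98 calls per mouse).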
